A study of Mus musculus with 8 samples.

Results

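The ligand genes of the Wnt, fibroblast growth factor (FGF), bone morphogenetic protein (BMP), hedgehog and Nodal/TGF-beta families were examined for binding of METTL14 and METTL3 in mouse embryonic stem cells (ESCs). Members were the protein-coding genes in RefSeq's annotation of GRCm38.p6, which shares its coordinates with mm10, named Wnt, Fgf, Bmp or Gdf with a number and an optional letter, together with Shh, Ihh, Dhh, Nodal, Lefty1, Lefty2, Tgfb1, Tgfb2, Tgfb3, Inhba and Inhbb. This rule matched 74 symbols. Bmp2k, a kinase gene named after BMP2 that encodes no ligand, was left out, and 73 of the 21900 protein-coding genes remained: 19 Wnt, 22 FGF, 21 BMP and GDF, 3 hedgehog and 8 genes of the Nodal, Lefty, TGF-beta and inhibin group. Bmp1, which encodes a secreted protease, and Fgf11 to Fgf14, which encode FGF family proteins that stay inside the cell, are no secreted ligands and were kept because the rule includes them.

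Ligands of these families are secreted proteins that pattern the early embryo. Wnt proteins bind Frizzled receptors and stabilise beta-catenin or steer cell polarity. FGFs bind receptor tyrosine kinases and activate the ERK cascade, BMP, GDF, Nodal and TGF-beta dimers signal through SMAD proteins, and hedgehog proteins release Smoothened from inhibition by Patched. In ESCs many genes of this kind are known to be kept silent and ready for activation on differentiation, while Nodal and Fgf4 are known to be expressed. The cells were grown with LIF at 1000 U/ml, 3 μM CHIR99021, which inhibits the kinase GSK3 and so mimics Wnt signalling, and 1 μM PD0325901, which blocks the kinase MEK downstream of FGF receptors. METTL3 and METTL14 together form the enzyme that places N6-methyladenosine on RNA.

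All cells were C57BL/6 ESCs, and CUT&RUN, in which an antibody guides a nuclease to the chromatin around its target, gave 1 peak list per library. Rabbit antibody against METTL14 was used in Mettl3 Control and Mettl3 CKO cells, and rabbit antibody against METTL3 in Mettl14 Control and Mettl14 CKO cells, with 2 libraries in each of the 4 groups. The labels do not explain CKO or how or when the genes were removed. Nothing says that the libraries were made from independent cultures, and a p-value here measures only the spread between the libraries compared, which may be technical. Peak lists hold no expression values, so neither the ESC label nor the activity of any ligand gene was checked. METTL14 lists held 3129 and 3546 peaks in Control and 3922 and 1439 in CKO cells. METTL3 lists held 353 and 341 peaks in Control and 242 and 344 in CKO cells. CKO replicate 2 of the METTL14 series is therefore much the shortest of its 4 lists, and read depth is unknown. At Mettl3 and within 2 kb of it no list had a peak, and at Mettl14 only METTL14 CKO replicate 1 had one, which does not check the genotypes.

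METTL14 peaks were found at a minority of the ligand genes, at a share close to that of protein-coding genes in general. A gene was counted in a library when a peak lay in it or within 2 kb of either end. Control replicate 1 had a METTL14 peak at 13 of the 73 genes (17.8%, 95% Wilson interval 10.7% to 28.1%), where 9.71% of all protein-coding genes had one. Control replicate 2 had 9 genes (12.3%, interval 6.62% to 21.8%) against 11.2% of all genes. CKO replicate 1 also had 9 genes (12.3%) against 12.9% of all genes, and CKO replicate 2 had 3 genes (4.11%, interval 1.41% to 11.4%) against 4.91%. The all-gene share lay below the interval of the ligand genes in Control replicate 1 and within it in the other 3 METTL14 libraries. These intervals cover counting error only, and neighbouring genes can share a peak.

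**Figure D1:**
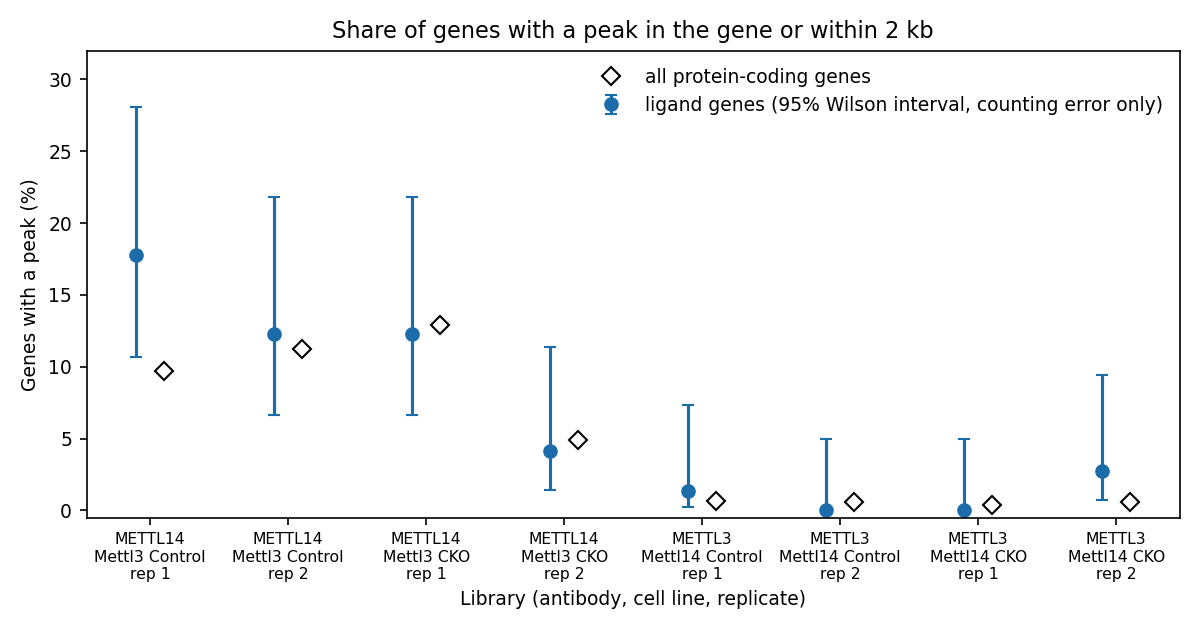
Share of genes with a peak in the gene or within 2 kb of it (y axis, percent) in each of the 8 libraries (x axis). Filled circles are the 73 ligand genes with 95% Wilson intervals for counting error, and open diamonds are all 21900 protein-coding genes. The circle stands clear of the diamond in METTL14 Control replicate 1 (17.8% against 9.71%), and elsewhere the METTL14 intervals hold the all-gene share. In METTL3 CKO replicate 2 the all-gene share (0.584%) also lies below the interval (0.755% to 9.45%), which rests on 2 ligand genes.

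Binding at ligand genes with and without Mettl3 was compared over the 4 METTL14 libraries. Control libraries averaged 11 ± 2.83 ligand genes with a peak (SD, n = 2), and CKO libraries averaged 6 ± 4.24 (SD, n = 2), a difference of -5 (two-sided exact permutation p = 0.667, where 2 libraries against 2 cannot give less than 0.333). Control replicate 2 and CKO replicate 1 both stood at 9, so the groups touch. Without CKO replicate 2 the difference was -2, without CKO replicate 1 it was -8, and without Control replicate 1 it was -3. With every METTL14 list shortened to its first 1439 peaks, Control libraries reached 3 and 6 ligand genes and CKO libraries 6 and 3, and the difference was 0 (exact permutation p = 1). At that length the ligand share was 4.11% in Control replicate 1 and 8.22% in Control replicate 2, against 4.4% and 4.33% of all genes. It was 8.22% in CKO replicate 1 and 4.11% in CKO replicate 2, against 4.63% and 4.91%. Which libraries stood above the all-gene share thus changed with list length. Lists were shortened in their deposited order, whose meaning the labels do not give, so equal length need not mean equal stringency.

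**Figure D2:**
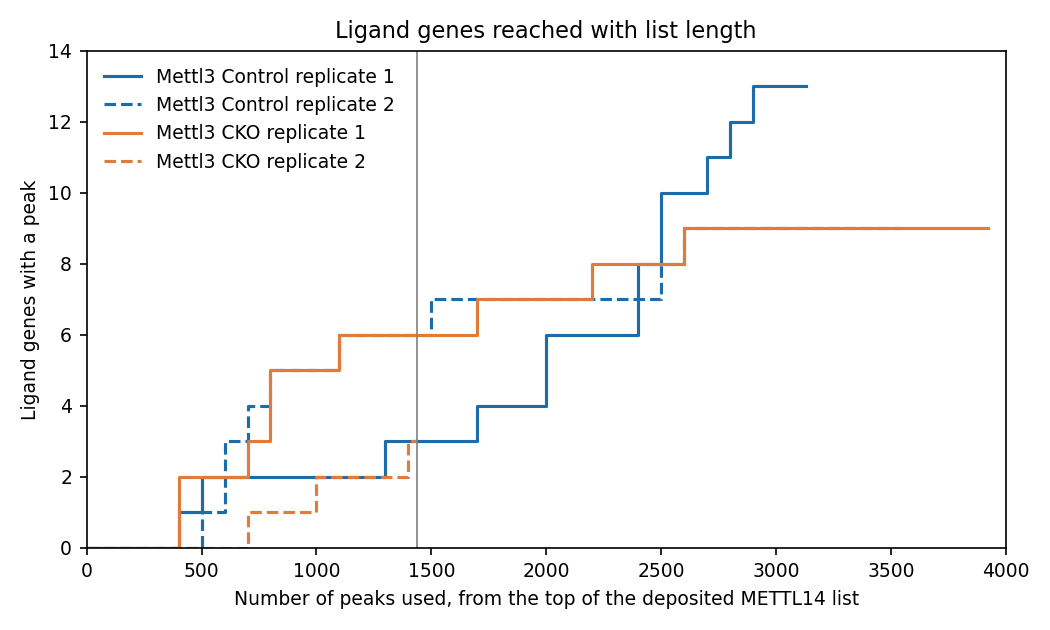
Ligand genes with a peak (y axis) among the first peaks of each deposited METTL14 list (x axis, number of peaks taken in deposited order); colours give the group and dashes replicate 2, and the grey line stands at 1439 peaks, the length of the shortest list. At that line the libraries stand at 3, 6, 6 and 3 genes, and only Control replicate 1 climbs to 13, with 10 genes added after the line.

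By family, Wnt genes gave 5 of 19 members with a METTL14 peak in at least 1 library, FGF genes 3 of 22, BMP and GDF genes 4 of 21, hedgehog genes 2 of 3, and the Nodal and TGF-beta group 2 of 8. That makes 16 of 73 ligand genes, 21.9%, where 20.8% of all protein-coding genes had such a peak, and left 57 with none. The Wnt members counted were 4 and 4 in the Control libraries and 2 and 0 in the CKO libraries. The FGF members were 3 and 1 in Control and 1 and 1 in CKO, and the BMP and GDF members 3 and 2 in Control and 3 and 1 in CKO. Hedgehog members were 2 and 1 in both genotypes. The Nodal and TGF-beta group had 1 and 1 in Control and 1 and 0 in CKO. Over all protein-coding genes the shares were 9.71% and 11.2% in Control and 12.9% and 4.91% in CKO. The low last share is that of CKO replicate 2, whose list held only 1439 peaks. A difference between families was not tested, and counts this small could not decide it.

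**Figure D3:**
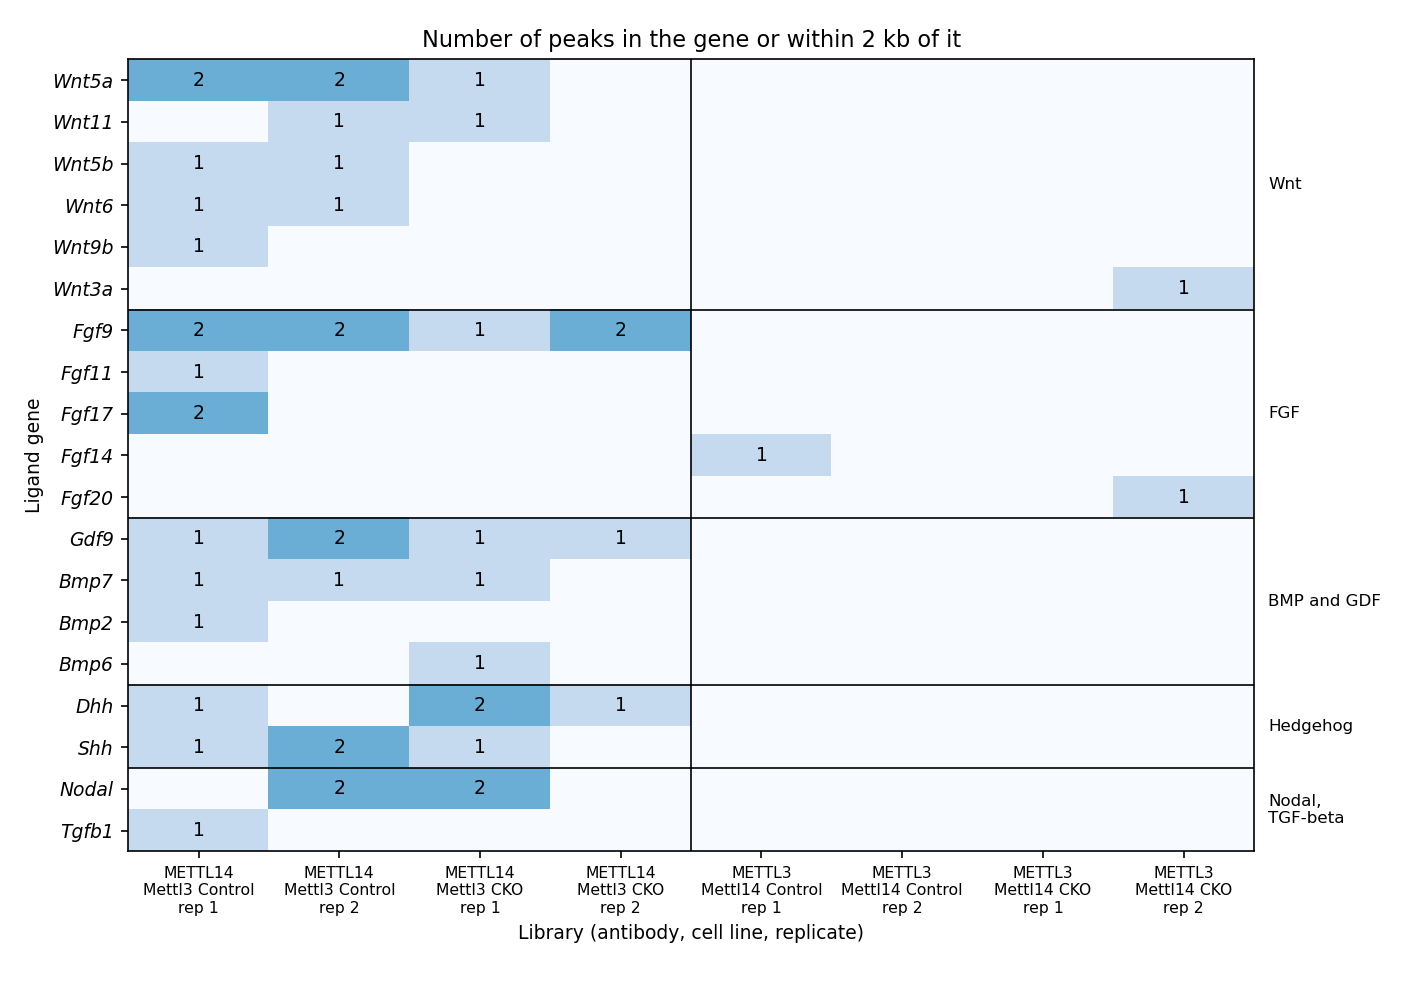
Number of peaks in the gene or within 2 kb of it (number and shade; blank, none) for the 19 ligand genes with a peak in at least 1 of the 8 libraries (rows, by family) and each library (columns; METTL14 left and METTL3 right of the line). Fgf9 and Gdf9 are filled in all 4 METTL14 columns, and METTL3 has single peaks at Wnt3a, Fgf14 and Fgf20.

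Requiring that peaks of both libraries of a group overlap by at least 1 bp left few ligand genes. Such a replicated region lay at 4 of 73 genes in Mettl3 Control cells (5.48%, Wilson interval 2.15% to 13.3%), against 3.82% of all protein-coding genes: Wnt5a, Wnt6, Fgf9 and Gdf9. In Mettl3 CKO cells it lay at 2 of 73 (2.74%, interval 0.755% to 9.45%), against 3.15% of all genes. These were Fgf9 and Gdf9, which makes 2 of 73 with a replicated region in both genotypes, against 1.78% of all genes. Each share is near that of genes in general. Asking only for a peak of each library anywhere in the gene or within 2 kb of it raised the Control count to 7. That is 9.59% (interval 4.72% to 18.5%), against 5.37% of all genes, with Bmp7, Shh and Wnt5b added. This wider rule raised the CKO count to 3 (4.11%, against 3.91% of all genes), with Dhh added. The CKO replicate 2 peak at Dhh lay 288 bp outside that gene and inside its neighbour Rhebl1.

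Fgf9 was the only ligand gene with a METTL14 site in all 4 libraries and no other coding gene within 2 kb of it. It encodes an FGF that drives growth of lung mesenchyme and testis formation. All 4 METTL14 libraries had a peak at the same place upstream of its start as listed by RefSeq (chr14, base 58072686, plus strand). The peak lay at 58071936-58072084 in Control replicate 1 and 58071955-58072103 in Control replicate 2. It lay at 58071973-58072121 in CKO replicate 1 and 58071983-58072131 in CKO replicate 2. Merged, this region covered chr14:58071936-58072131, 196 bp, beginning 750 bp before the start and ending 555 bp before it. RefSeq places the lower end of Fgf9 at 58070671, so the region counts as inside the gene (58070671 to 58112854). The Control libraries each had a further peak 2185 and 1987 bp after the start, at 58074871-58075019 and 58074673-58074821, which did not overlap each other and were not seen in CKO cells. CKO replicate 2 had a further peak of its own closer to the start, at 58072449-58072597.

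That last peak, and peaks at Nodal and Wnt9b, were the only ones to reach the 300-base promoter windows (250 bases before to 50 after a start) that RefSeq GRCm38.p6 sequences gave for 51 of the 73 genes. In each of the 4 METTL14 libraries 1 of these 51 genes had a peak in its window, where 3.92% and 5.05% of the 17492 genes with a window had one in Control and 6.58% and 2.47% in CKO. The 3 sequences below are given to show what kind of promoter carried a peak. They are printed 5′ to 3′ along the gene's own strand, ending just before the start for Fgf9 and Wnt9b and 30 bases after it for Nodal, with the bases under a METTL14 peak in capitals.
Fgf9, chr14:58072436-58072685, plus strand: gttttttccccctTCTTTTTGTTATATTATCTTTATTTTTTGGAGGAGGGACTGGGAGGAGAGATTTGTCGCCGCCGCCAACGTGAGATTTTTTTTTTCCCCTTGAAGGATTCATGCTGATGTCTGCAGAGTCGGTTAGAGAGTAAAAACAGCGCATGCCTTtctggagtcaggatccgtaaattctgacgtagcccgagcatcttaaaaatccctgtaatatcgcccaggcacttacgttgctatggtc
Nodal, chr10:61417722-61418001, plus strand: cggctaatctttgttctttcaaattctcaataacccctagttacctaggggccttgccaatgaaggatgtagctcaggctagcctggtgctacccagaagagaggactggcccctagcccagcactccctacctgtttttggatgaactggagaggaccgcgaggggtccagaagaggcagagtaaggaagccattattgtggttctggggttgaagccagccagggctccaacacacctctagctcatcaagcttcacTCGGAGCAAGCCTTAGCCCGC
Wnt9b, chr11:103749822-103750071, minus strand: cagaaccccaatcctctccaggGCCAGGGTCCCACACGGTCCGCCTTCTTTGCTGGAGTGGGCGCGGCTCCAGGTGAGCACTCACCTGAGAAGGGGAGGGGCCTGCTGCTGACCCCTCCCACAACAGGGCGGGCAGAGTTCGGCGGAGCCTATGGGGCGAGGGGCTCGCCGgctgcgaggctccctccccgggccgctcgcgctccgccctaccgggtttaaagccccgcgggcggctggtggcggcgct
In Fgf9 the 149 capital bases run from 237 to 89 bases before the start, in CKO replicate 2 alone. In Nodal the capitals begin at the 10th transcribed base, and both peaks run on past the printed stretch. In Wnt9b the 149 capital bases run from 228 to 80 bases before the start, in Control replicate 1 alone. The 3 windows differ widely in base composition. The Wnt9b window is 71.7% G or C with 29 CpG dinucleotides, 0.753 of the number its C and G content would give. The Nodal window is 54% G or C with 5 CpG (0.229), and the Fgf9 window is 42.7% G or C with 12 CpG (0.88).

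Ligand genes with and without a METTL14 peak had promoters of much the same median composition. The median G or C content was 63.5% over the 10 ligand genes with a window and a METTL14 peak in at least 1 library, and 64% over the 41 with a window and no peak. The median ratio of observed to expected CpG was 0.719 and 0.72. Over all protein-coding genes the same 2 medians of the CpG ratio were 0.761 with a peak (3653 genes) and 0.469 without (13839 genes), and those of G or C content 61.3% and 54.7%. The gap between the medians with and without a peak was thus smaller among ligand genes than among all genes, which is a description with no test. Gene length differed more: the median was 18870 bp for the 16 ligand genes with a METTL14 peak and 12928 bp for the 57 without, against 25881 and 15336 bp for all genes. A longer gene offers more bases to a count over the gene body, and its part in the counts was not tested.

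Gdf9, which encodes a growth factor secreted by the oocyte, also had a METTL14 peak in all 4 libraries. The peaks lay at 53431006-53431154 in Control replicate 1 and 53431033-53431181 in Control replicate 2. They lay at 53431025-53431173 in CKO replicate 1 and 53430952-53431100 in CKO replicate 2. Merged they form chr11:53430952-53431181, 178 bp inside the lower end of Gdf9 (53430774 to 53437904). The same peaks lie 121 to 202 bp beyond the higher end of Uqcrq (53427922 to 53430831), which encodes a subunit of respiratory complex III and overlaps the lower end of Gdf9. Control replicate 2 had a further peak, 53430650-53430798, which spans the lower end of Gdf9 and lies inside Uqcrq, 33 bp from its higher end. To which of these genes the site belongs cannot be told from position. Given to the coding gene with the nearest end, it falls to Uqcrq, and the count of ligand genes with a replicated region becomes 3 in Control and 1 in CKO cells, Fgf9 alone in the latter.

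Wnt5a encodes a Wnt that acts largely without beta-catenin and shapes limb and axis outgrowth. A METTL14 peak lay about 3 kb inside its lower end in 3 of 4 libraries, at 28507506-28507654 and 28507502-28507650 in Control cells and 28507463-28507611 in CKO replicate 1. Merged, the region is chr14:28507463-28507654, and Wnt5a spans 28504543 to 28527448. Control replicate 1 had a second peak at 28506647-28506795 and Control replicate 2 one at 28505302-28505450, so the Control lists together show 3 separate places near the lower end of the gene. CKO replicate 2, the short list, had none. The shared peak stood at places 568 and 559 in the Control lists and 384 in CKO replicate 1, within the first 1439 of each. The part of list length in its absence was not tested. Wnt6, a Wnt of surface ectoderm and kidney epithelium, had overlapping peaks in both Control libraries (74784432-74784580 and 74784426-74784574) and none in either CKO library. They lay 742 and 748 bp inside its higher end (chr1: 74754342 to 74785322), more than 12 kb after its listed start and within 2 kb of the noncoding gene Gm32099. These peaks stood at places 1994 and 2427 of their lists, beyond the 1439 peaks that CKO replicate 2 held in all. With every METTL14 list cut to that length, neither Wnt6 nor Gdf9 had a replicated region in Control cells, while Fgf9 and Wnt5a kept theirs. Wnt6 was the only one of 32 merged METTL14 regions at ligand genes that was called in both Control and neither CKO library, and none was called in both CKO and neither Control library. Among the 5666 regions at all coding genes, 176 and 109 had these patterns.

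**Figure D4:**
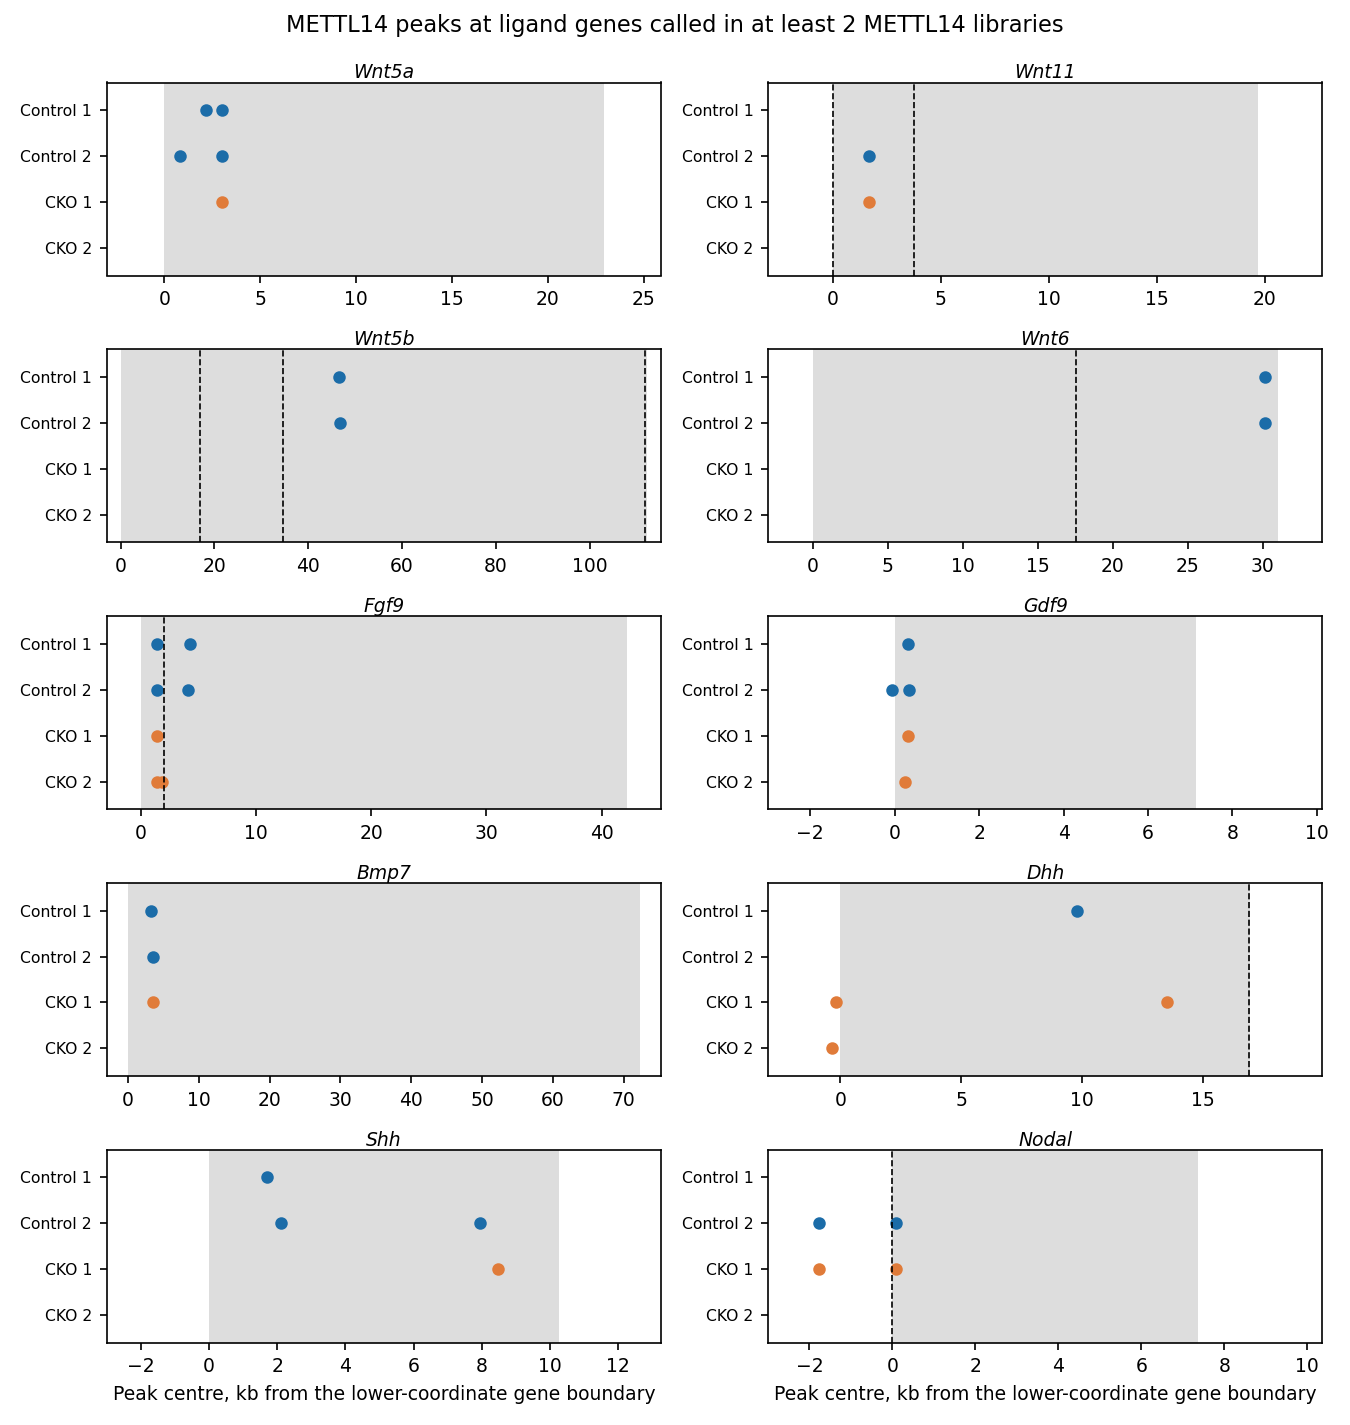
Position of METTL14 peaks at the 10 ligand genes with a peak in at least 2 METTL14 libraries. The x axis gives the peak centre in kb from the gene boundary with the lower coordinate, rows are the 4 libraries (blue, Mettl3 Control; orange, Mettl3 CKO), grey marks the gene and dashed lines the listed starts. At Fgf9 and Gdf9 dots stack at 1 place in all 4 libraries, and at Wnt5a in 3, with further dots at each of these genes. At Shh they scatter along the gene. At Dhh they lie inside the gene in Control replicate 1 and CKO replicate 1, and just beyond its lower end in both CKO libraries.

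Both Shh, the hedgehog that patterns limb and neural tube, and Dhh, that of testis and peripheral nerve, had peaks in 3 of 4 METTL14 libraries. The peaks at each gene did not overlap (these and the following genes were described after their values were seen). At Shh (chr5: 28456840 to 28467101) Control replicate 1 had a peak at 28458482-28458630 and Control replicate 2 at 28458865-28459013 and 28464712-28464860. CKO replicate 1 had 1 at 28465232-28465380. No 2 of these 4 peaks overlapped. At Dhh (chr15: 98881615 to 98898562) Control replicate 1 had a peak in the gene at 98891327-98891475 and CKO replicate 1 at 98895061-98895209. The CKO libraries also had peaks just beyond its lower end, at 98881367-98881515 and 98881179-98881327. These do not overlap and lie at the higher end of the neighbour Rhebl1, a small GTPase gene (98877760 to 98881497). The third hedgehog gene, Ihh, had no peak in any library.

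Nodal and Wnt11 each had matching peaks in Control replicate 2 and CKO replicate 1 only. Nodal, the inducer of mesoderm and endoderm, spans chr10: 61417972 to 61425338 and carried a pair of sites. The upstream site lay at 61416128-61416276 and 61416131-61416279 in these libraries, ending 1696 and 1693 bp before the start. The second, whose edge is seen in the sequence above, lay at 61417991-61418139 and 61417981-61418129, just after the start. Lefty2, an antagonist of Nodal and a known target of its pathway, had METTL14 peaks in 3 libraries just outside the 2 kb limit, at 4268 and 4373 bp in Control and 4195 bp in CKO replicate 1, and was not counted. At Wnt11, a Wnt of cell movement and kidney branching, the peaks lay at chr7:98836695-98836843 and 98836699-98836847, beginning 1583 and 1587 bp after the first listed start. Bmp7, needed for kidney and eye, had peaks in Control replicate 2 and CKO replicate 1 that overlapped (chr2:172871520-172871680 merged) and 1 in Control replicate 1 nearby (172871211-172871359). Of the merged ligand regions 4, all at Nodal, Wnt11 and Bmp7, were seen in Control replicate 2 and CKO replicate 1 only. In any other pair of 1 Control and 1 CKO library there were 0. Control replicate 2 and CKO replicate 1 had the longest METTL14 lists, 3546 and 3922 peaks. At all coding genes this pair of lists had 321 such regions and the other pairs 217, 63 and 71.

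The remaining METTL14 peaks at ligand genes stood in few libraries. Wnt5b had a peak in each Control library (119479021-119479169 and 119479276-119479424), which did not overlap. They lie 499 and 244 bp before the start of Fbxl14, an F-box gene nested in the annotated span of Wnt5b, and over 11 kb from the nearest Wnt5b start. Bmp2, Tgfb1, Fgf11, Fgf17 and Wnt9b had peaks in Control replicate 1 alone, and Bmp6 in CKO replicate 1 alone, 815 bp before its start. The 2 peaks at Fgf17 also lie 259 and 652 bp inside the higher-coordinate end of Dmtn, which encodes an actin-binding protein. Fgf17 (414 bp) and Bmp6 (815 bp) had their nearest peak inside the 2 kb limit though outside the gene, and Fgf4 (3412 bp) and Lefty2 (4195 bp) were the nearest beyond it. Fgf4, the FGF that ESCs make and that primes them to differentiate, thus had no peak at the gene, and its nearest was in Control replicate 1 only.

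Over the 4 METTL14 libraries there were 45 peaks at 16 ligand genes, forming 32 merged regions. Of the 32, 24 (75%) were called in 1 library, 5 in 2 libraries, 1 in 3 and 2 in all 4. Among the 5666 regions at any coding gene, 69.4% were called in 1 library and 5.37% in all 4, so ligand regions recurred about as often as others. Of the 45 peaks 37 lay inside the gene and 28 (62.2%) within 2 kb of either end of that ligand gene. Of all METTL14 peaks at coding genes 71.7% lay within 2 kb of an end of any coding gene. That is a wider measure, so these shares cannot be compared directly. At 11 of the 45 peaks another coding gene lay within 2 kb, and at 3 of the 16 genes (Gdf9, Fgf17 and Wnt5b) this held for every peak. Of the 25 peaks at genes with a listed start 15 lay within 2 kb of one.

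No METTL14 peak was found at 14 Wnt genes, Wnt1, Wnt3, Wnt3a, Wnt4, Wnt7a and Wnt8a among them, nor at 19 FGF genes including Fgf2, Fgf4, Fgf5, Fgf8 and Fgf10. Bmp4, the BMP of early mesoderm and germ cell induction, had none, nor had Gdf1, Gdf3 or the other 14 unmarked BMP and GDF genes. Neither Lefty gene, nor Tgfb2, Tgfb3, Inhba or Inhbb, had a peak at the gene. A gene missing from a list was not detectable at the authors' threshold and unknown depth, which does not show that it was unbound.

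With the METTL3 antibody no ligand gene had a replicated region in Mettl14 Control cells (0 of 73, which allows a share of up to 4.11%) or in Mettl14 CKO cells (0 of 73, the same limit). Over all protein-coding genes the shares were 0.151% and 0.164%, so an empty count says little. The METTL3 lists gave single peaks at 3 ligand genes. Control replicate 1 had 1 gene (1.37%, against 0.635% of all genes), Fgf14, at chr14:124117945-124118229 deep inside that long gene. Control replicate 2 had 0 (against 0.566%) and CKO replicate 1 had 0 (against 0.393%). CKO replicate 2 had 2 (2.74%, interval 0.755% to 9.45%, against 0.584%), Fgf20 at chr8:40284665-40284909 and Wnt3a at chr11:59258716-59258960. None of the 3 lay within 2 kb of a gene end, where 21.4% of all METTL3 peaks at coding genes did. None of the 3 genes had a METTL14 peak, which held for 79.2% of all protein-coding genes. Counts of 3 cannot set either zero apart from these shares. Control libraries averaged 0.5 ± 0.707 ligand genes (SD, n = 2) and CKO libraries 1 ± 1.41 (SD, n = 2) (difference 0.5, two-sided exact permutation p = 1). Its sign rested on CKO replicate 2, without which it was -0.5.

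Between the Control lines, 11 ± 2.83 ligand genes (SD, n = 2) had a METTL14 peak and 0.5 ± 0.707 (SD, n = 2) a METTL3 peak. The difference was 10.5 (two-sided exact permutation p = 0.333, the smallest that 2 libraries against 2 can give). Antibody, cell line and list length changed together and cannot be told apart. With all 4 lists shortened to 341 peaks the mean was 0.5 for each antibody and the difference 0.

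The other genes of these pathways, 132 in 9 lists of receptors, antagonists, transducers and targets, had METTL14 peaks more often than all genes in each of the 4 libraries, a description with no test. The lists were chosen with earlier results of these data known, so this excess may not be independent of the choice. METTL14 peaks lay at 18 (13.6%) and 23 (17.4%) of the 132 in the Control libraries, against 9.71% and 11.2% of all genes. They lay at 26 (19.7%) and 14 (10.6%) in the CKO libraries, against 12.9% and 4.91%. At least 1 METTL14 library had a peak at 43 of the 132 (32.6%), against 21.9% of ligand genes and 20.8% of all genes. Replicated regions lay at 4 of 132 in Control (3.03%) and 5 of 132 in CKO cells (3.79%), against 3.82% and 3.15% of all genes. Gsk3b, which encodes the kinase that marks beta-catenin for destruction and that CHIR99021 inhibits, was the only one with a replicated region in both genotypes. That is 1 of 132, where 1.78% of all genes had one in both. The region at Gsk3b spanned the lower end of the gene at chr16:38088963-38089132 in Control and 38088962-38089140 in CKO cells. The others, named after their values were seen, were in Control cells Dvl2, a Wnt signal transducer, Dusp4, a phosphatase of the ERK cascade, and Sp5, a Wnt target. In CKO cells they were Ptch1, the hedgehog receptor, Fst, a secreted binder of activin, Lef1, a Wnt pathway transcription factor, and Map2k2, a MEK gene. By list, peaks in at least 1 METTL14 library were found at 8 of 18 Wnt receptors (44.4%) and 2 of 6 FGF receptors (33.3%). They were found at 2 of 15 TGF-beta and BMP receptors (13.3%) and 2 of 7 hedgehog receptors (28.6%). Secreted antagonists had 3 of 21 (14.3%) and genes of ligand processing 1 of 12 (8.33%). Transducers had 6 of 23 (26.1%), pathway transcription factors 7 of 10 (70%) and feedback targets 12 of 20 (60%). TGF-beta and BMP receptors, antagonists and ligand processing genes thus lay below the 20.8% of all genes, and the other lists above it. No METTL3 library had a peak at any of the 132 genes. Of all genes only 0.393% to 0.635% had one per METTL3 library, so this empty count says little.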

How the data were processed

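CUT&RUN peaks were taken from the 8 lists the authors deposited, 1 per library and not pooled. The deposited score was 1 for every peak, so peaks were used as present or absent by their mm10 positions. Per the submitters' processing notes, CASAVA, Trimmomatic 0.38, Bowtie2 2.4.1, SAMtools and HOMER were used, with no role given. Threshold, background library and read depth: not given in the sources used here.

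Genes came from RefSeq GRCm38.p6 (21900 protein-coding), and 132 of 132 pathway symbols matched. Strand and starts were used for the 51 members with a RefSeq promoter sequence. Exons and introns were not analysed here. Peaks sharing at least 1 bp were merged, and a region was replicated when each library of the group had a peak in it. Numbers of genes per library were compared by two-sided exact permutation tests over libraries. Named in full were members with a replicated region in any group, pathway genes with one in both Mettl3 genotypes, Mettl3 and Mettl14; others were counted and listed. The members and lists were chosen with earlier results of these data known. Alternatives covered the window, list length, replication rule, overlap, chromosomes, membership, libraries left out and a replicate block. Overlap functions (Python 3.11.15, pandas 2.3.3, numpy 2.4.6) were tested on simulated data.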

Additional observations from a re-analysis of the deposited data

How the results depend on the processing

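The CKO minus Control difference in METTL14-marked ligand genes (-5) kept its sign under all alternatives tried except equal list length, where it was 0. It was -1.5 within 2 kb of either gene end and -0.5 within 2 kb of a listed start. The values without 1 library ranged from -8 to -2. The METTL3 difference (0.5) was 0 within 2 kb of either gene end and also within 2 kb of a listed start, and ranged from -0.5 to 1.5 without 1 library. The antibody difference (10.5) was 0 at equal list length and 8.5 to 12.5 without 1 library. Replicated METTL14 regions lay at 4 Control genes. That count was 1 near a listed start (51 genes only) and 2 (Fgf9 and Wnt5a) at equal list length. With a peak of each library anywhere in the gene or within 2 kb of it the count was 7. It was 15 with a peak of either library and 9 to 13 with 1 library alone. The CKO count of 2 was 1 near a listed start, 1 with each region given to the nearest coding gene, 9 with either library, and 3 to 9 with 1 library alone. The count in both genotypes (2) was 1 near a listed start, 1 at equal list length, 1 with the nearest coding gene and 8 with either library, and 2 to 3 without 1 library. METTL3 counts of 0 became 1 in Control and 2 in CKO cells with either library, and 0 to 1 and 0 to 2 with 1 library alone. Adding Bmp2k, an alternative chosen after seeing the data, changed none of these values. With the replicate block, the METTL14 difference was -5 (exact sign-flip p = 0.5, the smallest possible) and the METTL3 difference 0.5 (exact p = 1). Same-numbered libraries did not deviate together over all genes (correlation -0.0458 for METTL14 and -0.0588 for METTL3), and the labels tie the numbers to nothing. The unknown depth limits every count.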
